A study of Mus musculus with 66 samples.

Results

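The translation initiation and elongation factors of mouse fibroblasts were followed through 16 h of Myc activation as a set of 59 genes, taken by symbol (Eif or Eef followed by a digit) from the 11513 genes of the deposited tables. Of these, 50 carried an Eif and 9 an Eef symbol. Symbol and function do not always coincide. The genes were therefore also sorted by role into 39 initiation factors, 7 elongation factors (Eef1a1, Eef1b2, Eef1d, Eef1g, Eef2, Eif5a and Eif5a2) and 13 regulators and genes of other roles. The cells were 3T9 fibroblasts, an immortal line derived from mouse embryos, of c-myc flox/flox genotype and infected in vitro with the pBabe bleomycin MycER construct. MycER is a fusion of Myc with a hormone-binding domain of the estrogen receptor, and it is activated by 4-hydroxytamoxifen (OHT). OHT was given at 400 nM and cells were collected after exposures of 10 min (the shortest) up to 16 h, with intermediate times at 20 and 30 min and at 1, 1.5, 2, 4, 8 and 12 h. All were set against untreated cells (0 min). At each time, RNA made during a 10 min pulse of 300 µM 4-thiouridine (labelled RNA) and total RNA depleted of ribosomal RNA were sequenced from 3 libraries each. Exon and intron reads of each gene were tabulated separately, which gave 4 tables of 33 libraries. All groups carried the floxed alleles and MycER. Cells without MycER were not analysed here, so MycER activity, OHT itself and time in culture cannot be told apart. The labels do not say whether the line was a clone or whether the 3 libraries of a group came from separate cultures. The p-values therefore measure the spread between libraries, which may be technical.

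Translation starts when eIF2 brings the initiator tRNA to the small ribosomal subunit, on which eIF3 acts as a scaffold, while the eIF4 factors bind the mRNA cap and unwind the leader. eIF1 and eIF1A guide scanning to the start codon, eIF5 and eIF5B lead to joining of the large subunit, and eIF2B recharges eIF2 with GTP. In elongation, eEF1A delivers aminoacyl-tRNAs, the eEF1B subunits recharge eEF1A, eEF2 moves the ribosome along the mRNA and eIF5A resolves stalled peptide bond formation. Myc is known as a transcription factor that binds the E-box CACGTG with its partner Max, and genes of ribosome production and translation are among its known targets.

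The promoters of 5 members are printed because they belong to genes that the results below turn on: Eef2k, Eif4e and Eif5a, whose labelled introns rose within 20 min, Eef2, which was called in neither exon table, and Eef1e1, which rose by more than 1 on the log2 scale at 16 h. Each line gives the 250 bases before a RefSeq transcription start, 5′ to 3′ on the gene's strand (RefSeq, build GRCm38.p6), with CACGTG in capitals. The windows are Eef2k at chr7:120842581-120842830 on the plus strand, Eif4e at chr3:138527018-138527267 on the plus strand, Eif5a at chr11:69921387-69921636 on the minus strand, Eef2 at chr10:81176381-81176630 on the plus strand and Eef1e1 at chr13:38659029-38659278 on the minus strand.
Eef2k: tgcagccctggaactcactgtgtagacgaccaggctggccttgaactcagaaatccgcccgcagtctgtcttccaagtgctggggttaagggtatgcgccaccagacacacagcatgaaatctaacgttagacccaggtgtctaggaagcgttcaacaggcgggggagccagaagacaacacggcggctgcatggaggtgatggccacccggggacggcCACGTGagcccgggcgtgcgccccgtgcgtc
Eif4e: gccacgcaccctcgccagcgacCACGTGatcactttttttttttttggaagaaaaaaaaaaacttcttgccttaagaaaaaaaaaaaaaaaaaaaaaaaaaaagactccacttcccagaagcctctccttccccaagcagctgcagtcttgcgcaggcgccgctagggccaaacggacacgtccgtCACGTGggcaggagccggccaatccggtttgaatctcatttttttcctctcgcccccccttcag
Eif5a: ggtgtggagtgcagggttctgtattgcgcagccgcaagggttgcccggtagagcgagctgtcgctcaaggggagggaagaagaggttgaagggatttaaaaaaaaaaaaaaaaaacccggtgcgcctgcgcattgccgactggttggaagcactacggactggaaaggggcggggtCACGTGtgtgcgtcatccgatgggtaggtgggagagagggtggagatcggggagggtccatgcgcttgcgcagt
Eef2: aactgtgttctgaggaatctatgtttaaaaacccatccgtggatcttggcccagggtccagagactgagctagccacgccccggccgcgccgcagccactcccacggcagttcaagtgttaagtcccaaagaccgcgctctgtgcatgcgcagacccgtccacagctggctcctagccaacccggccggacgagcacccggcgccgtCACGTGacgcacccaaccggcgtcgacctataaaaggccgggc
Eef1e1: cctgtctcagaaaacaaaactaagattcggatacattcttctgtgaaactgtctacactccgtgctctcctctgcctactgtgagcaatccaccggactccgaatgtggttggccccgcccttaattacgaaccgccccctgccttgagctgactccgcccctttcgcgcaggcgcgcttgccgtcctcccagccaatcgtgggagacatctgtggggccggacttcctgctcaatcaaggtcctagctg
CACGTG began 31 bases before the start in Eef2k, 64 and 228 bases before it in Eif4e, 74 bases before it in Eif5a and 43 bases before it in Eef2, and it was not in the Eef1e1 window. Some genes had several windows: CACGTG lay in 1 of 3 of Eef2k, 1 of 2 of Eif4e and 3 of 6 of Eif5a. For these genes a window holding CACGTG was printed. Promoter windows of 300 bases (250 before and 50 from the start on) were found for 47 of the 59 members. CACGTG, which reads the same on both strands, lay in at least 1 window of 12 of these 47 members (25.5%), against 12.1% of the 9216 genes of the series with a window. Counted by window, it lay in 22.6% of 62 member windows, 10.1% of 11835 windows of the series and 7.15% of all 32851 windows. The 12 members were 8 of 31 initiation factor genes (Eif1b, Eif3a, Eif3f, Eif3k, Eif4a1, Eif4e, Eif4g1 and Eif4h), 3 of 5 elongation factor genes (Eef2, Eif5a and Eif5a2) and 1 of 11 regulators and others (Eef2k). The variant CACGCG was held by 10 of 47 members (21.3%), close to the 20.4% of genes of the series. In labelled exons at 4 h, 3 of the 12 members with CACGTG rose and none fell (median log2 change 0.09), while 17 of the 35 without CACGTG rose and 2 fell (median 0.12). Of all genes, 19.6% rose and 18.8% fell in labelled exons at 4 h. In labelled introns at 20 min, 5 of the 12 with CACGTG and 22 of the 35 without it rose, where 16.5% of all genes rose and 13.6% fell. The split by motif was not tested.

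By length-scaled level (RPKM, reads per kilobase of gene and per unit of library size, as deposited), Eef1a1, the gene of the main aminoacyl-tRNA carrier, stood far above every other member at 0 min. In total exons it had 7450, 6520 and 6890 RPKM in the 3 libraries, and the next were Eef2 with 1100, 1170 and 1130 RPKM, Eif4a1 (the cap-complex helicase) with 861, 770 and 815 RPKM and Eef1g with 761, 689 and 755 RPKM. The libraries of these 4 genes did not overlap one another, and neither did those of Eef1g and Eif5a, the next in order. At the low end were the eEF2 methyltransferase gene Eef2kmt at 3.04 ± 0.272 RPKM and Eif4e3 at 1.46 ± 0.203 RPKM (SD, n = 3 each). Labelled exons began with the same 5 genes in the same order, from Eef1a1 at 975 ± 68.6 RPKM through Eef2 at 178 ± 16.6, Eif4a1 at 174 ± 18.5 and Eef1g at 139 ± 13.5 to Eif5a at 110 ± 12.3, and ended with Eif4e3 at 0.465 ± 0.0825 RPKM (SD, n = 3). In labelled RNA the libraries of Eef2 and Eif4a1 overlapped. All 59 members passed the filter on low values (at least 10 in at least 3 libraries) in all 4 tables, and their summed exon values made up 2.5 to 2.93% of a labelled and 3.89 to 4.27% of a total library. Processed pseudogenes of Eef1a1 and several other members share sequence with them, and the sources used here do not say how such reads were counted.

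The libraries behaved alike in size: the deposited values of a library summed, in units of 1e+06, to between 11.6 and 14.1 in labelled exons and between 46.5 and 52.7 in total exons. The authors had already rescaled these values, so true depth is unknown. Of 10 fibroblast markers 9 were listed, with Vim at 2220 and Col1a1 at 167 RPKM at 0 min, while the epithelial markers Epcam, Cdh1, Krt8, Krt18 and Krt5 were not listed and Pecam1 and Ptprc stayed at or under 0.146 and 0.127 RPKM in every library. Other markers of immune and neural cells were detected: Cd68 had 2.25 RPKM at 0 min and up to 3.24 in a library, Tubb3 had 7.31 and up to 30.3, and Map2 had 2.03 and up to 2.35. Their part in the results was not tested. As a check on OHT, the Myc-responsive genes Ncl and Cad had log2 changes of 0.64 (SE 0.0934) and 0.69 (SE 0.0804) in labelled exons at 16 h. No spike-in scale was used, so a change is measured against the typical gene, and in bulk RNA fewer cells with a transcript and less of it per cell cannot be told apart. All times were set against the same 3 libraries at 0 min, so neighbouring times are not independent.

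More translation factor transcripts rose than fell with OHT. Changes were tested with limma on log2(scaled value + 1), and a member was called where the p-value adjusted over all genes of the table was under 0.05. In labelled exons, 17 members rose and 1 fell at 1 h, where 13.7% of all genes rose and 9.65% fell. At 4 h 26 rose and 2 fell, against 19.6% and 18.8% of all genes, and at 16 h 27 rose and 6 fell, against 22.7% and 21.6%. The median log2 change over the 59 members was 0.13, 0.12 and 0.16 at these times, beside 0.01, 0.00 and 0.01 over all genes tested. Total exons followed later: 8 members rose and 1 fell at 1 h (5.08% and 3.66% of all genes), 18 rose and 3 fell at 4 h (19.5% and 19.9%), and 27 rose and 9 fell at 16 h (26.3% and 29.6%). Their median log2 change was 0.06, 0.08 and 0.15, beside medians between -0.02 and 0.00 over all genes. At the other times, labelled exons had no call at 10 min (0% of genes), 1 member up at 20 min (3.35% of genes rose and 0.679% fell), 7 up and 1 down at 30 min (8.24% and 3.6%), and 17 up and 4 down at 1.5 h (14.7% and 11.4%). They then had 23 up and 3 down at 2 h (15.6% and 11.3%), 30 up and 2 down at 8 h (21.8% and 22.5%), and 30 up and 5 down at 12 h (25% and 24.5%). Total exons had 9 up and 1 down at 1.5 h (9.19% and 7.84%), 13 up and 2 down at 2 h (11.5% and 10.5%), 31 up and 6 down at 8 h (24.6% and 26.6%), and 29 up and 8 down at 12 h (27% and 30%). The share of members that rose was above the share of all genes that rose from 1 h on in both tables, while the share that fell was below that of all genes. With no scaling beyond the authors' own, the split in total exons at 4 h was 13 up and 5 down, and the 9 calls at 1 h were 4; those 9 were also 4 or 5 after leaving out any 1 of the 3 libraries at 0 min or the 3 at 1 h.

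At 16 h, 23 members rose in both exon tables, which is 23 of the 27 in each table. The 5 that fell in both were of 6 in labelled and 9 in total exons, and none rose in one and fell in the other. The 7 members without a call at any time in either exon table were Eef1g, Eef2, Eif1, Eif1ad, Eif3e, Eif3h and Eif4g2. The same counts over all genes are not given here. Whether this overlap of the exon tables is particular to the members therefore cannot be told.

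**Figure D1:**
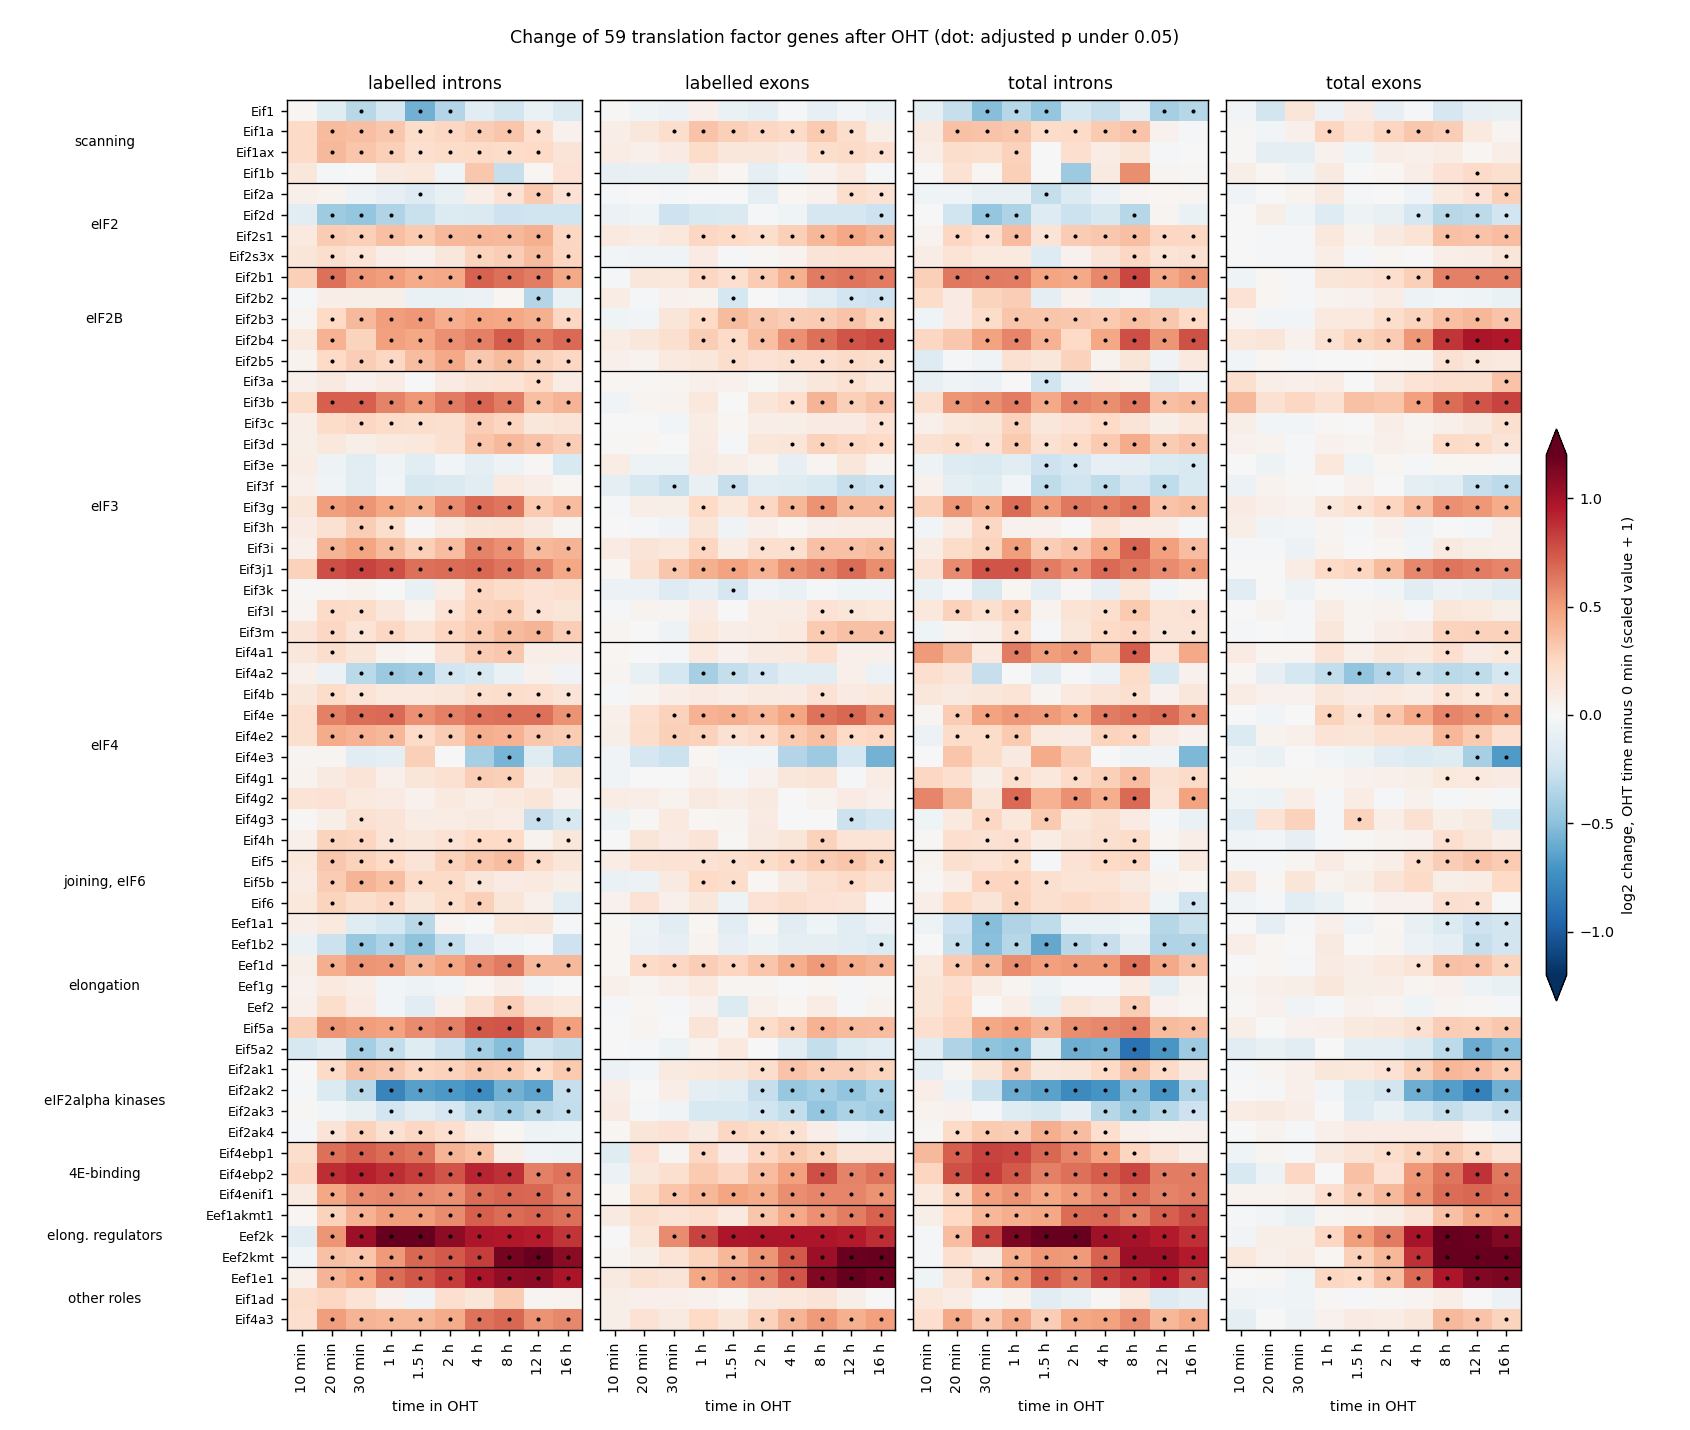
Log2 change of each of the 59 members (rows, by role) at each OHT time minus 0 min (columns) in the 4 tables, 3 libraries a group; red is higher and blue lower in OHT, the colour scale is cut at 1.2, and a dot marks an adjusted p under 0.05. Introns of labelled RNA carry 34 rises at 20 min, while total exons carry no call before 1 h.

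Split by role, counts and medians differed from class to class. Of all genes, 22.7% rose and 21.6% fell in labelled exons at 16 h, and 26.3% rose and 29.6% fell in total exons. In labelled exons at 4 h, 19.6% of all genes rose and 18.8% fell. At 16 h in labelled exons 17 of 39 initiation factors rose and 3 fell with a median log2 change of 0.16. Of the 7 elongation factors 2 rose and 1 (Eef1b2) fell with a median of 0.01. The call of Eef1b2 was lost on leaving out any 1 of the 6 libraries compared (-0.18 to -0.13). Of the 13 regulators and others 8 rose and 2 fell with a median of 0.50. In total exons the same classes had 17 up and 4 down (median 0.13), 2 up and 3 down (median -0.09) and 8 up and 2 down (median 0.32). At 4 h the counts in labelled exons were 14 up and 0 down, 2 up and 0 down, and 10 up and 2 down, with medians of 0.11, 0.00 and 0.41. Split by symbol alone, the order was the other way: the 9 Eef genes had a median of 0.41 at 16 h in labelled exons with 5 up and 1 down, and the 50 Eif genes a median of 0.16 with 22 up and 5 down. Of the 5 Eef genes that rose, 4 (Eef2k, Eef2kmt, Eef1akmt1 and Eef1e1) are not elongation factors by role and 1 (Eef1d) is. These class differences are descriptions and were not tested.

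**Figure D2:**
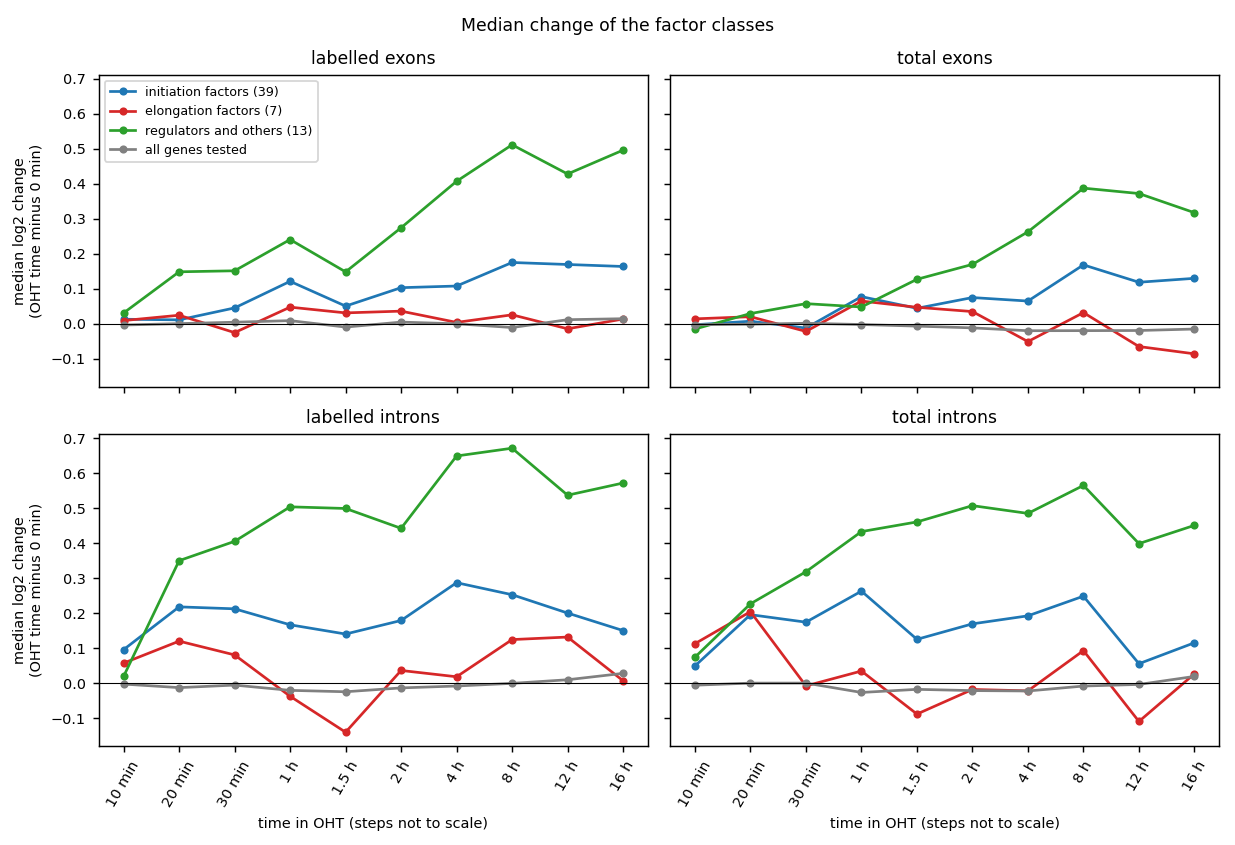
Median log2 change (y axis) at each OHT time minus 0 min (x axis, not to scale) of the 39 initiation factors, the 7 elongation factors, the 13 regulators and others and all genes tested, in the 4 tables. At 16 h in labelled exons the medians were 0.16, 0.01, 0.50 and 0.01.

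Of the 5 subunit genes of eIF2B, the exchange factor of eIF2, 4 rose and 1 fell in labelled exons at 16 h, and 3 rose in total exons. Over all genes, 22.7% rose and 21.6% fell in labelled exons, and 26.3% rose and 29.6% fell in total exons. Eif2b1, its alpha subunit (chr5:125020222-125029140 on the minus strand; gene positions are in mm9), had scaled values of 1341, 1247 and 1143 in labelled exons at 16 h, against 782, 814 and 827 at 0 min. In total exons it had 8081, 7460 and 7914 at 16 h, against 5260, 5140 and 4982 at 0 min. Every library at 16 h stood above every library at 0 min in both tables, and the log2 changes were 0.62 (SE 0.0751, adjusted p = 1.83e-08) and 0.61 (SE 0.0605, adjusted p = 1.17e-09) by limma. Eif2b4, the delta subunit, changed most of the 5, by 0.78 (SE 0.0848) in labelled and 0.96 (SE 0.0553) in total exons, and Eif2b3, the gamma subunit, rose by 0.27 and 0.34. Eif2b5, the catalytic epsilon subunit, rose by 0.21 in labelled exons and had 0.12 in total exons, where it was not called. The labelled call was lost without 0 min replicate 2 (0.16) and with no scaling beyond the authors' own (0.19), and in total exons it was called without 16 h replicate 2 (0.13). Eif2b2, the beta subunit, went the other way in labelled exons, with 340 ± 7.22 at 16 h and 404 ± 6.65 at 0 min (SD, n = 3 each; log2 change -0.25, SE 0.0808), and had -0.08 (SE 0.0766) in total exons, not called.

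Eif2s1, the alpha subunit of eIF2 that the stress kinases phosphorylate, had 3710, 3255 and 3721 in labelled exons at 16 h, against 2736, 2776 and 2549 at 0 min. In total exons it had 16890, 16090 and 17610 at 16 h, against 14090, 12260 and 12830 at 0 min. The groups did not overlap in either table, with log2 changes of 0.40 (SE 0.0668, adjusted p = 5.26e-06) and 0.37 (SE 0.0739, adjusted p = 9.88e-05). Eif2d, whose product can deliver tRNA outside the canonical route, fell by 0.25 in labelled and 0.23 in total exons. The call in labelled exons was lost without 0 min replicate 1 (-0.21), 0 min replicate 3 (-0.23) or 16 h replicate 3 (-0.21), and in a fit of only the groups compared.

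Of the 13 eIF3 subunit genes, 7 rose and 1 fell at 16 h in each exon table. Of all genes, 22.7% rose and 21.6% fell in labelled exons, and 26.3% rose and 29.6% fell in total exons. The 7 were not the same genes: Eif3i rose in labelled exons only and Eif3a in total exons only. Without 16 h replicate 3, Eif3a and Eif3c lost their calls in total exons and Eif3c in labelled exons. Eif3c also lost its call in total exons without 0 min replicate 3. Eif3b, a core subunit, had 7373, 6838 and 7680 in labelled exons at 16 h, against 5822, 5374 and 6085 at 0 min. Total exons gave 28190, 28710 and 35710 at 16 h, against 16010, 18340 and 18260 at 0 min. No library at 16 h overlapped 0 min, and the log2 changes were 0.34 (SE 0.0614, adjusted p = 2.03e-05) and 0.81 (SE 0.172, adjusted p = 0.000202). Eif3b varied widely between total libraries of the same time. At 10 min replicate 3 had 31850, beside 18250 and 20750 in replicates 1 and 2. At 1 h replicate 3 had 15240, below every 0 min library, beside 23350 and 22070 in replicates 1 and 2. The Eif3b call at 4 h (0.50, adjusted p = 0.0224) was lost in total exons without 0 min replicate 1 (0.43), without 4 h replicate 1 (0.43) and without 4 h replicate 2 (0.41), and in labelled exons (0.21) without 0 min replicate 2 (0.16) or with no scaling beyond the authors' own (0.14). Eif3j1, the loosely bound subunit, rose by 0.56 (SE 0.0759) and 0.59 (SE 0.0658) at 16 h, Eif3g by 0.39 and 0.45, and Eif3m by 0.35 and 0.27. Eif3f fell by 0.26 in labelled and 0.32 in total exons, and the labelled call was lost without 16 h replicate 2 (-0.21). Eif3e and Eif3h, both among the 7 most abundant members at 0 min, had changes between 0.01 and 0.09 and were not called.

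The eIF4 group was led by Eif4e, the cap-binding protein gene and a known Myc target (chr3:138189155-138220563, plus strand). In labelled exons it had 3195, 3530 and 3036 at 0 min, 4201, 4494 and 4316 at 1 h, 4583, 4422 and 4501 at 4 h and 4812, 4615 and 5152 at 16 h. Its total exons had 22360, 23150 and 21640 at 16 h, against 16120, 15760 and 15250 at 0 min. The 3 labelled groups all lay above the 0 min libraries, with log2 changes at 1 h, 4 h and 16 h of 0.42 (SE 0.0689), 0.47 (SE 0.0689) and 0.58 (SE 0.0689; adjusted p = 1.17e-08), and total exons reached 0.51 (SE 0.065, adjusted p = 1.12e-07). Its call in total exons at 1 h (0.27) was lost without 1 h replicate 3 (0.23).

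Eif4g1, the scaffold of the cap complex, had 13110, 12100 and 13570 in labelled exons at 16 h, against 12800, 11040 and 12570 at 0 min. Its groups overlapped, and its log2 changes of 0.09 (SE 0.0737) in labelled and 0.10 (SE 0.0464, adjusted p = 0.0658) in total exons were not called by limma. In total exons it was called without 16 h replicate 1 (0.14), with scaling by library sums (0.14) and with median-of-ratios scaling (0.12). Eif4a1, the helicase, had 15780, 14660 and 17050 in labelled exons at 16 h, against 15610, 13930 and 15850 at 0 min, which overlap. In total exons Eif4a1 had 98340, 104600 and 104100 at 16 h, against 96710, 91070 and 92740 at 0 min (log2 change 0.13, SE 0.0555, adjusted p = 0.0474), a call lost without 0 min replicate 2 (0.11), 0 min replicate 3 (0.12), 16 h replicate 2 (0.11) or 16 h replicate 3 (0.12). The call was also lost with no scaling beyond the authors' own, with RPKM plus 0.1 as the scale, and in a fit of only the groups compared.

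Its paralogue Eif4a2, which encodes a near-identical helicase, went down instead. In labelled exons Eif4a2 had 11780, 11960 and 11100 at 0 min, 9035, 9294 and 8068 at 1 h and 11440, 11560 and 10170 at 16 h. Total exons gave 22310, 22580 and 21680 at 0 min, 18380, 17800 and 18210 at 1 h and 18270, 20920 and 18600 at 16 h. In labelled exons the drop was present at 1 h (log2 change -0.40, SE 0.082, adjusted p = 0.000337) and at 16 h its libraries overlapped those at 0 min (-0.07). In total exons all groups from 1 h on were called, the lowest at 1.5 h (-0.475), with -0.21 (SE 0.0634, adjusted p = 0.00667) at 16 h. Reads that both copies share could be split between them, and Eif4a2 is overlapped by Rfc4 on the other strand, and whether counting used strand is not stated, so reads from both genes cannot be told apart. Other paralogue pairs also parted in total exons: at 16 h Eif4e3 fell by 0.68 while Eif4e rose, and Eif5a2 fell by 0.52 while Eif5a rose. In labelled exons neither Eif4e3 nor Eif5a2 was called at 16 h with all libraries. Eif4e3 had 50.5, 24.06 and 37.9 there at 16 h, against 44.47, 56.36 and 61.01 at 0 min. Eif5a2 had 279.2, 280.7 and 301.3, against 348, 309 and 293, so both overlapped. The labelled Eif4e3 fall was called without 0 min replicate 1 or 16 h replicate 1. Eif4e3 is also overlapped by Foxp1 on the same strand.

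The scanning factor gene Eif1a was up for part of the course. Its total exons had 11780, 11340 and 10640 at 0 min, 13250, 13330 and 13760 at 1 h, 14000, 13090 and 15120 at 4 h and 10820, 11650 and 11970 at 16 h. The libraries at 1 h and 4 h lay above those at 0 min (log2 changes of 0.26, adjusted p = 0.00667, and 0.32, adjusted p = 0.000118) and those at 16 h overlapped them (0.03). The 1 h call was lost without 0 min replicate 3 (0.22). In labelled exons it had 2585, 3001 and 2544 at 0 min, 3284, 3465 and 3537 at 1 h, 3247, 2995 and 3272 at 4 h and 2897, 2614 and 3029 at 16 h. There its change was 0.34 at 1 h (adjusted p = 0.000402) and 0.23 at 4 h, with overlapping libraries at 4 h, where the call was lost without 0 min replicate 1 (0.20) or 0 min replicate 3 (0.19) and with no scaling beyond the authors' own (0.17). Eif6, which keeps the large subunit from joining too early, had 1434, 1387 and 1471 in labelled exons at 16 h, against 1415, 1409 and 1444 at 0 min. Total exons gave 11450, 10560 and 11450 at 16 h, against 12200, 10520 and 10950 at 0 min. Those groups overlapped and Eif6 was called in total exons at 8 h (0.20) and 12 h (0.18) with overlapping libraries. In labelled exons it had no call, except at 4 h in a fit of only the groups compared (0.21).

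Of the 7 elongation factors, 2 rose at 16 h in both exon tables (22.7% of all genes rose in labelled and 26.3% in total exons). Eif5a (chr11:69730216-69735460, minus strand) had 12870, 12800 and 14110 in labelled exons at 16 h, against 10490, 9404 and 10810 at 0 min. Total exons gave 70460, 65320 and 75220 at 16 h, against 58800, 51640 and 57760 at 0 min. Groups did not overlap, with log2 changes of 0.37 (SE 0.0741, adjusted p = 7.79e-05) and 0.33 (SE 0.0695, adjusted p = 0.000207). Its call at 4 h in total exons (0.18, adjusted p = 0.0382) was lost without 0 min replicate 2 (0.12), 4 h replicate 1 (0.16) or 4 h replicate 3 (0.15). With no scaling beyond the authors' own the 4 h calls in total (0.13) and labelled exons (0.23) were both lost, and a fit of only the groups compared lost that in total exons. Eef1d, an exchange factor subunit for eEF1A, rose by 0.41 (SE 0.0579) in labelled and 0.26 (SE 0.0513) in total exons at 16 h. It was the only member called in labelled exons as early as 20 min (0.23), where 3.35% of all genes rose. That call was lost without 0 min replicate 2 (0.19, with Eif4e called in its place), 0 min replicate 3 (0.22) or 20 min replicate 1 (0.21). It was also lost with no scaling beyond the authors' own and in a fit of only the groups compared. Without 0 min replicate 1, 3 members were called.

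The most abundant elongation factors were either not called or fell. Eef2, the translocase gene (chr10:80639376-80645252, plus strand), had 25760, 25530 and 27440 in labelled exons at 16 h, against 25410, 24250 and 26890 at 0 min. Its total exons had 208000, 209600 and 220100 at 16 h, against 205200, 229500 and 213300 at 0 min. Its groups overlapped in both tables, and the log2 changes were 0.04 (SE 0.0673) and -0.02 (SE 0.0567). Eef1a1 (chr9:78326256-78336958, minus strand) had 80570, 68720 and 81430 in labelled exons at 16 h, against 79750, 79070 and 83540 at 0 min, which overlap (-0.07, SE 0.0951). In total exons Eef1a1 had 670200, 640300 and 641200 at 16 h, against 796200, 733400 and 745800 at 0 min. Every library at 16 h lay below every one at 0 min there, with a log2 change of -0.22 (SE 0.0651, adjusted p = 0.0049), after -0.17 at 8 h and -0.25 at 12 h, both called, and -0.09 at 4 h, not called. Eef1b2, which recharges eEF1A, fell by 0.23 in total exons at 16 h. In labelled exons its log2 change of -0.16 was called with all libraries, but the call was lost on leaving out any 1 of the 6 libraries compared (-0.18 to -0.13), with no scaling beyond the authors' own, and in a fit of only the groups compared. Eef1g was not called (-0.09 in total and 0.01 in labelled exons).

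Summed over the genes of a class, elongation factor transcripts were lower relative to initiation factor transcripts in total RNA. These sums were taken after the values of single genes had been seen and carry no test. For the sums, the deposited RPKM of each library were divided by its scaling factor. The sums therefore differ from those of deposited RPKM, while the ratios within a library do not. In total exons the summed RPKM of the 7 elongation factors was 1.61 ± 0.0749 times that of the 39 initiation factors at 16 h, and 1.99 ± 0.0175 times at 0 min (SD, n = 3 each), and libraries of the groups did not overlap. Both sums moved: the elongation factors stood at 8642 ± 210 RPKM at 16 h and 9590 ± 298 at 0 min, and the initiation factors at 5359 ± 166 RPKM at 16 h and 4824 ± 124 at 0 min. Without Eef1a1 the elongation sum was 2760 ± 86.1 RPKM at 16 h and 2732 ± 10.4 at 0 min, and the ratio was 0.515 ± 0.0196 at 16 h and 0.567 ± 0.0147 at 0 min. In labelled exons it was 1.03 ± 0.0308 at 16 h and 1.15 ± 0.0344 at 0 min with Eef1a1, and 0.390 ± 0.00451 at 16 h and 0.401 ± 0.0156 at 0 min without it, so there the difference without Eef1a1 was smaller than the SD at 0 min.

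**Figure D3:**
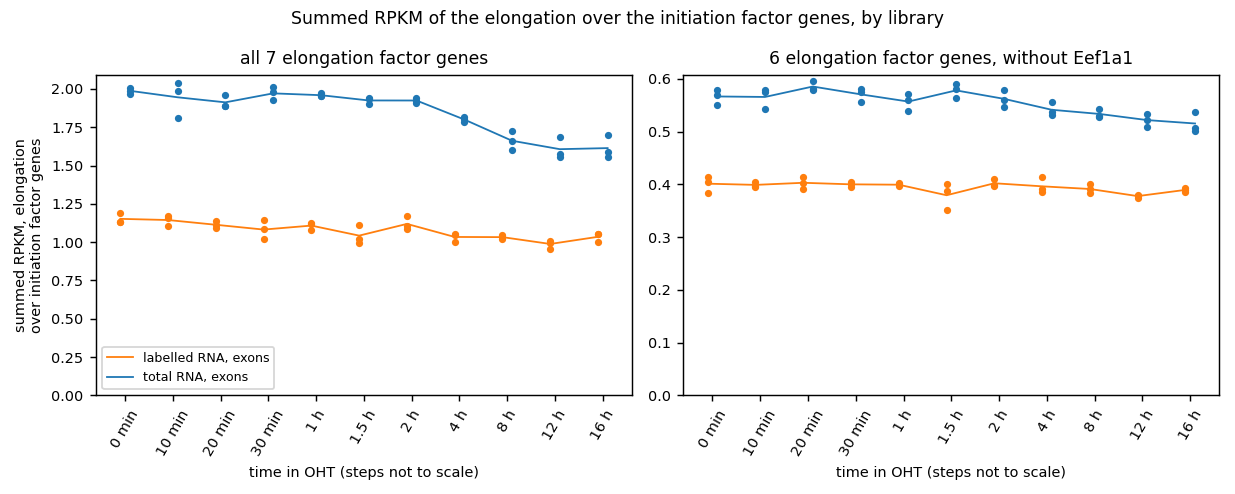
Summed RPKM of the elongation factor genes over that of the 39 initiation factor genes (y axis) at each time in OHT (x axis, not to scale), with all 7 elongation factors (left) and without Eef1a1 (right); points are libraries and lines are means of 3. In total exons the ratio was 1.61 at 16 h and 1.99 at 0 min.

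The largest rises at 16 h in both exon tables were those of Eef2kmt, Eef1e1 and Eef2k, none of which is an elongation factor by role. Eef2k, the kinase that phosphorylates eEF2 and slows elongation (chr7:127986345-128050733, plus strand), had 534.6, 498.2 and 504.7 in labelled exons at 0 min, 953.6, 852 and 887.5 at 1 h, 987.3, 998.9 and 1021 at 4 h and 985.3, 860.1 and 1006 at 16 h. Its total exons had 1578, 1671 and 1569 at 0 min, 2005, 2053 and 1698 at 1 h, 3227, 3272 and 3041 at 4 h and 3598, 3213 and 3626 at 16 h. No library at these times overlapped 0 min, and the log2 change in labelled exons was already 0.81 (SE 0.0938, adjusted p = 3.61e-08) at 1 h, when total exons stood at 0.25 (SE 0.0675, adjusted p = 0.0162). That 1 h call in total exons was lost without 0 min replicate 1 (0.24), 0 min replicate 3 (0.24), 1 h replicate 1 (0.22) or 1 h replicate 2 (0.20), and in a fit of only the groups compared. At 16 h the changes were 0.89 in labelled and 1.11 in total exons (adjusted p = 9.8e-10 and 4.42e-14).

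Eef2kmt, which methylates eEF2, climbed more slowly and further. It had 146.9, 154 and 162.7 in labelled exons at 0 min, 248.8, 275.8 and 250 at 4 h and 398.1, 378.9 and 368.6 at 16 h. Total exons gave 428.1, 379.5 and 417.7 at 0 min, 705, 764.1 and 778.4 at 4 h and 1325, 1309 and 1392 at 16 h. The groups lay apart, with log2 changes of 1.30 (SE 0.132) and 1.72 (SE 0.0768) at 16 h (adjusted p = 4e-10 and 8.96e-17). Eef1akmt1, a methyltransferase of eEF1A, rose by 0.71 and 0.49 at 16 h. Alg1 and Gm15983 overlap Eef2kmt on the other strand, and Gm15774 overlaps Eef2k, so reads of these genes cannot be told apart without strand.

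Eef1e1, a scaffold protein of the multi-tRNA synthetase complex that carries an elongation factor symbol (chr13:38737567-38750897, minus strand), had 1656, 1493 and 1704 in labelled exons at 16 h, against 713.5, 742.8 and 713.7 at 0 min. Its total exons had 7838, 8722 and 8374 at 16 h, against 3993, 3940 and 3488 at 0 min. The groups did not overlap and both log2 changes were above 1 (1.16, SE 0.076, and 1.13, SE 0.078; adjusted p = 1.12e-14 and 7.48e-13). Its change in total exons at 1 h (0.25, adjusted p = 0.0403) was lost without 0 min replicate 2 (0.28), 0 min replicate 3 (0.19) or any 1 library at 1 h (0.24 to 0.26), and with scaling by library sums (0.22), no scaling beyond the authors' own (0.25) or no variance trend (0.25). Eif4a3, the helicase of the exon junction complex, rose by 0.50 and 0.26 at 16 h, and Eif1ad was not called.

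**Figure D4:**
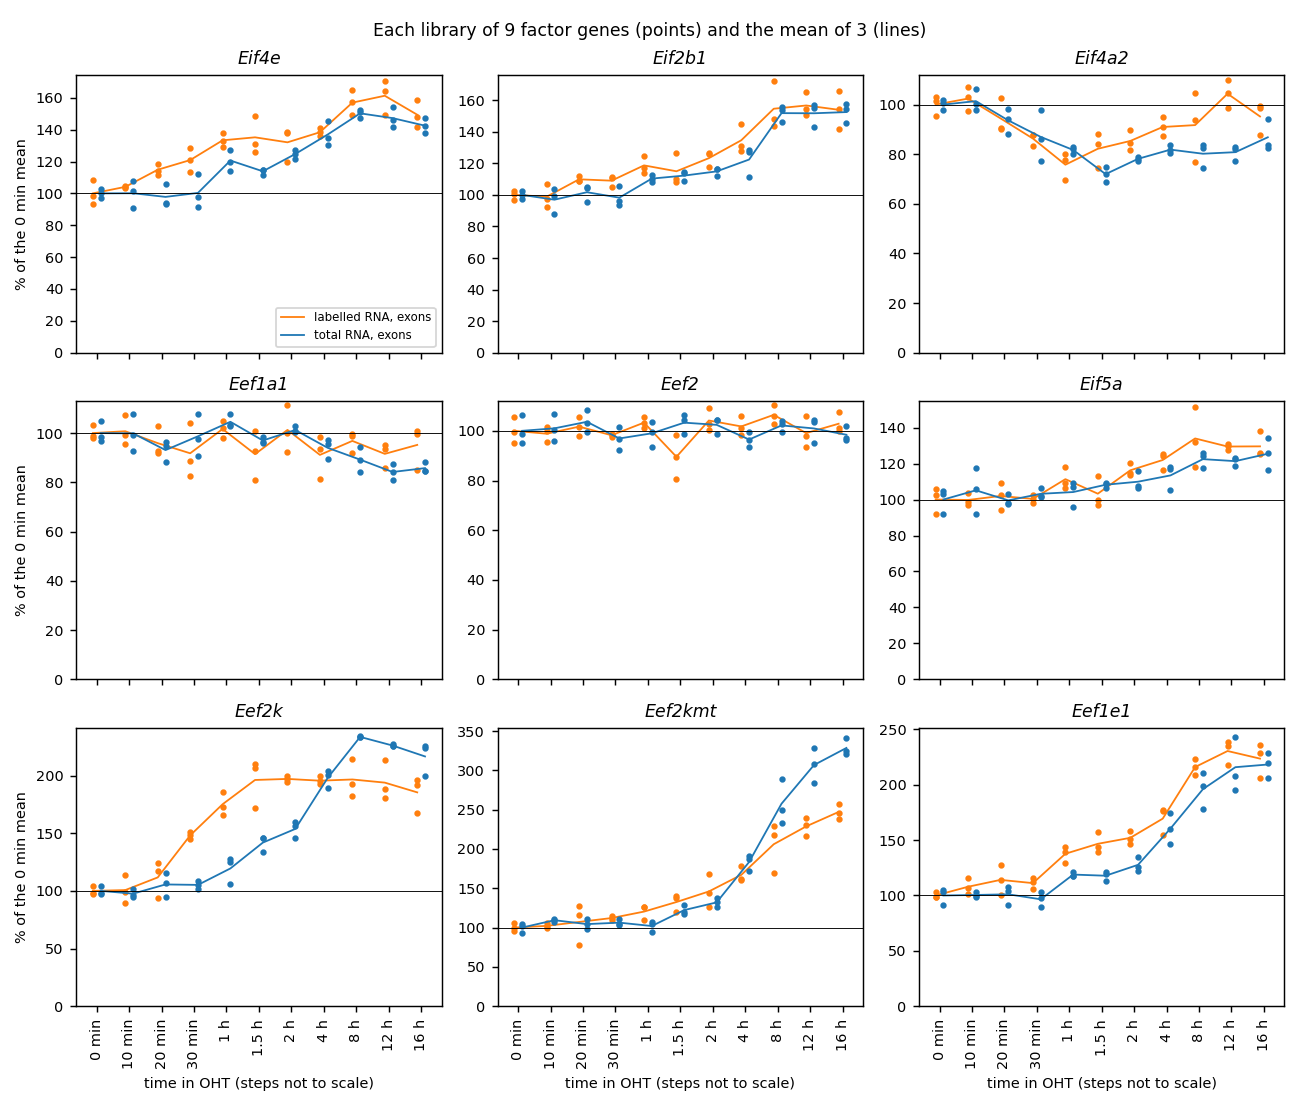
Exon values of 9 members in each library as a percentage of their 0 min mean (y axis, from 0) at each time in OHT (x axis, not to scale); points are libraries of labelled RNA (orange) and total RNA (blue) and lines are means of 3. Eef2k stood higher in labelled than in total RNA from 30 min to 2 h, whereas Eef1a1 in total RNA lay below its 0 min libraries at 16 h.

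The eIF2alpha kinases, which shut down initiation under stress, moved in both directions. Eif2ak2 (PKR, activated by double-stranded RNA) had 960.5, 970.3 and 940.9 in labelled exons at 16 h, against 1230, 1294 and 1214 at 0 min. Total exons gave 1822, 1904 and 1799 at 16 h, against 2609, 2874 and 2774 at 0 min. All libraries at 16 h lay below those at 0 min, with log2 changes of -0.38 (SE 0.0785, adjusted p = 0.000142) and -0.58 (SE 0.0588, adjusted p = 1.76e-09), and at 4 h of -0.45 and -0.58. Eif2ak3 (PERK, the kinase of the endoplasmic reticulum) fell by 0.42 in labelled and 0.28 in total exons at 16 h, with overlapping libraries in total exons. The call in total exons was lost without 0 min replicate 2 (-0.19) or 16 h replicate 3 (-0.19). Eif2ak1 (the heme-regulated kinase) rose by 0.27 and 0.32. Eif2ak4 (GCN2, which senses uncharged tRNA) rose in labelled exons in the middle of the course (0.25 at 1.5 h, 0.22 at 2 h, 0.18 at 4 h) and had -0.08 at 16 h, not called. Its 4 h call was lost without 0 min replicate 2 (0.17), without 4 h replicate 1 (0.17), with no scaling beyond the authors' own (0.12) and in a fit of only the groups compared.

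Among the genes of eIF4E-binding proteins, Eif4ebp2 and Eif4enif1 (the nuclear import partner of eIF4E) rose and Eif4ebp1 showed a passing change. Eif4ebp1, a translational repressor regulated by mTOR, had 1094, 905.8 and 978.1 in labelled exons at 0 min, 1316, 1149 and 1236 at 4 h and 1203, 1000 and 1119 at 16 h. Total exons gave 6932, 5910 and 5713 at 0 min, 8195, 6541 and 7545 at 4 h and 7242, 6699 and 6892 at 16 h. Labelled libraries at 4 h lay above 0 min (log2 change 0.32, adjusted p = 0.00595), those in total exons overlapped (0.26, adjusted p = 0.00805), and at 16 h neither was called (0.16 and 0.17). The 4 h call in labelled exons was lost without 0 min replicate 2 (0.25), and that in total exons without 0 min replicate 3 (0.21) or 4 h replicate 1 (0.19). With no scaling beyond the authors' own both were lost (0.25 and 0.21). At 16 h in total exons it was called without 0 min replicate 1 (0.26), with scaling by library sums (0.21) and with median-of-ratios scaling (0.19). Eif4ebp2 rose by 0.66 in labelled and 0.63 in total exons at 16 h, and Eif4enif1 by 0.54 and 0.67.

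At 20 min, calls among the members were most numerous in labelled introns. None of the 59 members was called at 10 min in any table by limma, although 15 in labelled introns, 12 in total introns, 4 in total exons and 0 in labelled exons had an unadjusted p under 0.05. Of all genes, 0.521% rose at 10 min in labelled introns and 0.122% in total introns. At 20 min 34 members rose and 1 (Eif2d) fell in labelled introns, where 16.5% of all genes rose and 13.6% fell, and the median log2 change was 0.23 over members and -0.01 over all genes. In total introns 17 rose and 1 fell at 20 min (7.64% and 3.87% of all genes). In total exons no member was called at 20 or 30 min, with 2 and 3 at an unadjusted p under 0.05 (0.0435% and 0.331% of all genes rose, and 0% and 0.0348% fell). By role, 22 of 39 initiation factors rose in labelled introns at 20 min (median 0.22), 2 of 7 elongation factors (Eef1d and Eif5a; median 0.12) and 10 of 13 regulators and others (median 0.35).

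Eif4e introns in labelled RNA had 16970, 16790 and 18440 at 20 min, against 11180, 12470 and 10630 at 0 min, a log2 change of 0.61 (SE 0.0651, adjusted p = 8.97e-09) that was 0.54 at 16 h. Eef2k introns had 2761, 2814 and 2239 at 0 min, 4074, 3825 and 3387 at 20 min and 5105, 5281 and 5509 at 30 min. Both genes were above every 0 min library at 20 min, and Eef2k introns reached 1.03 (SE 0.0944) at 30 min and 1.30 at 1.5 h. Eif4ebp1 introns rose and came back: they had 3841, 3470 and 2970 at 0 min, 5323, 5329 and 6257 at 30 min and 3633, 3143 and 3082 at 16 h. The log2 change was 0.72 (SE 0.0829, adjusted p = 1.98e-08) at 30 min and -0.06 at 16 h, when the libraries overlapped. Introns of Eif5a rose by 0.53 (SE 0.0828) at 20 min. Those of Eef1a1 were called only at 1.5 h (-0.34) in labelled and at 30 min (-0.51) in total RNA, with overlapping libraries in both. Labelled Eef1a1 introns had 2072, 1993 and 1375 at 1.5 h, against 2399, 2061 and 2312 at 0 min.

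Tested within each labelled library, the intron change exceeded the exon change of 14 members at 20 min and fell short of it in none, with 9.29% of all genes called in either direction. The log2 difference was 0.68 (SE 0.0926) for Eif3b, 0.59 (SE 0.0743) for Eif3j1, 0.50 (SE 0.122) for Eif5a, 0.41 (SE 0.0548) for Eif4e and 0.38 (SE 0.0915) for Eef2k. At 30 min 17 members had introns above and 1, Eif2ak2, had introns below exons (14.7% of all genes called), and at 1 h 11 were called (10.4%), Eif2ak2 with -0.68 (SE 0.109). By 4 h only Eif3b (0.49) and Eif3i (0.41) remained (1.33%), and at 16 h none was called by limma, with 5 at an unadjusted p under 0.05 (0.749%). Introns can hold other genes: 9 members contain small nucleolar RNA genes in the mm9 annotation (Eef1b2, Eef2, Eif2ak3, Eif3a, Eif4a1, Eif4a2, Eif4g1, Eif4g2 and Eif5), 16 are overlapped by a gene on the other strand and 1 (Eif4e3) by one on the same strand, and the part of such reads in their values was not tested.

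Later times in labelled introns gave 34 up and 6 down at 30 min (21.8% of all genes rose and 20.6% fell), 32 and 6 at 1 h (24.2% and 25%), 27 and 6 at 1.5 h (22.8% and 21.4%), and 31 and 5 at 2 h (22.5% and 21.7%). They gave 35 and 4 at 8 h (26.8% and 26%), and 31 and 4 at 12 h (28% and 26.7%). Total introns gave 27 up and 5 down at 30 min (15% and 12.3%), 35 and 5 at 1 h (20.1% and 20.5%), and 25 and 7 at 1.5 h (20.1% and 17.6%). They gave 24 and 4 at 2 h (18.9% and 17.7%), 33 and 4 at 8 h (22.3% and 22.9%), and 22 and 6 at 12 h (22.3% and 22.4%). In labelled introns 37 members rose and 4 fell at 4 h (24.9% of all genes rose and 24.9% fell), and 27 rose and 3 fell at 16 h (25.7% and 22.7%). In total introns 31 rose and 5 fell at 4 h (19.8% and 20.1%) and 24 rose and 7 fell at 16 h (21.4% and 19.9%). The last of these was 25 up and 2 down with scaling by library sums or with no scaling beyond the authors' own, and 18 up and 2 down without total 16 h replicate 3.

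Labelled and total RNA were compared directly through the difference of their exon changes. At 30 min Eef2k (0.49, SE 0.118, adjusted p = 0.0128) and Eef1d (0.27, SE 0.0752, adjusted p = 0.0384) had changed more in labelled than in total RNA (1.96% of all genes called in either direction). Eef2k was called again at 1 h (0.55, adjusted p = 0.00468; 1.41% of genes) and 1.5 h (0.46, adjusted p = 0.0377; 0.855%), and Eef2k alone was in the set at these times. At 4 h no member was called by limma, with 4 at an unadjusted p under 0.05 (0.0611% of all genes called). At 16 h Eif3i had changed by 0.38 in labelled and 0.06 in total exons, a difference of 0.32 (SE 0.072, adjusted p = 0.0247; 0.332% of genes), as at 12 h (0.28, adjusted p = 0.0302; 1.27%). The 16 h call was lost with no scaling beyond the authors' own, with median-of-ratios scaling, with a fit of only the groups compared, and without labelled 0 min replicate 2, labelled 16 h replicate 3, total 0 min replicate 1, total 16 h replicate 1 or total 16 h replicate 2.

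**Figure D5:**
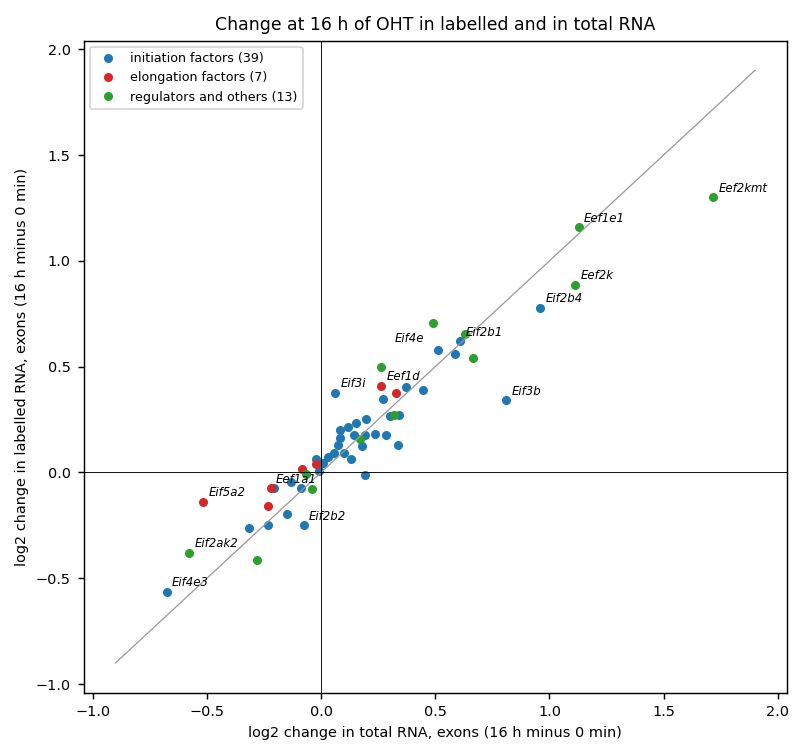
Log2 change at 16 h minus 0 min in labelled exons (y axis) against total exons (x axis) for the 59 members, coloured by role; the grey line marks equal change. Eef2kmt, Eef1e1 and Eef2k lie farthest up, and Eif3i is the member whose changes were called different (0.38 in labelled, 0.06 in total RNA).

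From 4 h to 16 h, 9 members rose and 7 fell in total exons (15.8% and 19.8% of all genes). This comparison does not say how the members stood against 0 min. Eif1a, for example, had been above 0 min at 4 h. Eef2kmt was higher at 16 h than at 4 h by 0.84 (SE 0.0768), Eef1e1 by 0.45 (SE 0.078) and Eif2b4 by 0.44 (SE 0.0553), while Eif4e3 was lower by a log2 change of -0.51, Eif5a2 of -0.34 and Eif1a of -0.29. In labelled exons 5 were higher at 16 h than at 4 h (Eef1e1, Eef2kmt, Eif2b4, Eif3i and Eif3m) and 1, Eif2ak4, lower (9.94% and 12.1%). Labelled introns went mainly down over this interval, with 1 member (Eif2ak2, 0.47) higher and 12 lower at 16 h (13.9% and 14.7%), among them Eif4ebp1 (-0.42) and Eif6 (-0.41).

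Of 40 other genes of translation outside the Eif and Eef symbols, 16 rose and 1 fell in labelled exons at 16 h (median log2 change 0.16), where 22.7% of all genes rose and 21.6% fell. In total exons 17 rose and 4 fell (median 0.12), beside 26.3% and 29.6% of all genes. Those with the smallest p at 16 h were Tufm, the mitochondrial elongation factor Tu (0.79 in labelled and 0.70 in total exons), and Abcf1, an initiation helper that binds eIF2 (0.74 and 0.89). Next were Pabpc4, a poly(A)-binding protein (0.62 in labelled exons) and Mknk1, a kinase of eIF4E (0.71 in total exons). All 10 mitochondrial translation factors had positive changes at 16 h, of which 5 passed the test in labelled and 6 in total exons. Of the 6 enzymes that modify eIF5A and eEF2 none passed in labelled exons at 16 h and 1 fell in total exons. At 1 h in labelled exons 8 of the 40 rose and 3 fell, where 13.7% of all genes rose and 9.65% fell. Rps6kb1, a kinase downstream of mTOR, had 0.32 and Gfm2, a mitochondrial recycling factor, had -0.42.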

How the data were processed

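RNA of 66 libraries (33 labelled with 4-thiouridine and 33 total) had been counted over exons and introns by the authors. Per the submitters' processing notes, TopHat, TopHat2 2.0.8 and build mm9 were used. The counter, annotation and use of strand are not stated. The deposited tables named counts hold whole numbers that had been rescaled (13 libraries nearly lack certain whole numbers), so they were treated as a score, no count model was run, true depth is unknown and no counting interval is given. The deposited RPKM, which equal these values times 1 constant per gene to the digits given, were used to compare levels between genes. Values were scaled by trimmed means of log ratios (30% of ratios and 5% of levels trimmed), kept where at least 10 in at least 3 libraries, and fitted as log2(value + 1) in limma 3.58.1 (R 4.3.3) with 1 mean per time over the 33 libraries of a table, a variance trend and Benjamini-Hochberg adjustment over all genes tested, at a threshold of 0.05. Changes of low genes are understated on this scale. Labelled and total changes were compared over all 66 libraries, and introns and exons within each labelled library. The fit was tested on simulated data. Alternatives varied the scaling, the added 1, the filter, the variance trend, the libraries fitted and a replicate block. Values in every library are given for 13 members fixed by name and for the called member with the smallest p in each direction at 1 h, 4 h and 16 h in each exon table; of other translation genes, up to 3 with the smallest p per comparison are named. Members and lists were chosen with earlier results of these data known. Gene positions came from GENCODE M1 (mm9) and promoters from RefSeq (GRCm38.p6), matched by Entrez ID.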

Additional observations from a re-analysis of the deposited data

Results flagged for a closer look

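Differences between labelled and total exon changes passed limma's test of the difference 6 times. They were 0.27 for Eef1d and 0.49 for Eef2k at 30 min, 0.55 for Eef2k at 1 h, 0.46 for Eef2k at 1.5 h, and for Eif3i 0.28 at 12 h and 0.32 at 16 h (labelled minus total, log2). Over all genes, 1.96% were called in either direction at 30 min, 1.41% at 1 h, 0.855% at 1.5 h, 1.27% at 12 h and 0.332% at 16 h.

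Members also differed between 16 h and 4 h by the test of that difference (16 h minus 4 h, log2). Of all genes, 9.94% were higher and 12.1% lower at 16 h in labelled exons, and 15.8% and 19.8% in total exons. Whether the members differ from other genes in this was not tested. In labelled exons the differences were 0.40 for Eef1e1, 0.56 for Eef2kmt, 0.23 for Eif2b4, 0.19 for Eif3i, 0.23 for Eif3m and -0.26 for Eif2ak4. In total exons the higher ones at 16 h were Eef2kmt (0.84), Eef1e1 (0.45), Eif2b4 (0.44), Eef1akmt1 (0.34), Eif2a (0.32), Eif2b1 (0.32), Eif2s1 (0.205), Eif3m (0.18) and Eif2s3x (0.14). The lower ones were Eif4e3 (-0.51), Eif5a2 (-0.34), Eif4g3 (-0.33), Eif1a (-0.29), Eif3f (-0.20), Eef1b2 (-0.16) and Eif2ak4 (-0.14).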

How the results depend on the processing

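With no scaling beyond the authors' own, calls in total exons at 1 h were 4 in place of 9, the single call in labelled exons at 20 min became 0, and the single difference between labelled and total change at 16 h became 0; median-of-ratios scaling also gave 0 for that difference. A fit of only the groups compared gave 5, 0 and 0 for these. Leaving out 1 library at a time gave 4 to 5 calls in total exons at 1 h, 0 to 3 in labelled exons at 20 min, 0 to 1 for the labelled against total difference at 16 h, and 20 to 27 in total introns at 16 h, where all libraries gave 31 and leaving out total 16 h replicate 3 gave 20. The same exercise gave 14 to 19 calls in labelled exons at 1 h, 22 to 27 at 4 h and 28 to 35 at 16 h, 18 to 22 in total exons at 4 h and 32 to 38 at 16 h, and 26 to 35 in labelled introns at 20 min. The cause of these shifts was not tested. A replicate block gave 3 calls in labelled exons at 20 min, 39 at 16 h, and 40 in total exons at 16 h, Eif4g1 and Eif4ebp1 among the last. The labels do not say what a shared replicate number means, so the numbers were not taken to pair samples. Libraries correlated best with the 0 min library of their own number in 12 of 30 pairs in labelled and 20 of 30 in total exons. In introns it was 14 of 30 in labelled and 17 of 30 in total RNA. A structure shared by replicate number in total RNA was not modelled in the main fit. In total exons at 4 h, however, same-number pairs correlated at 0.1779, 0.1858 and 0.1233. A replicate block there added calls of Eif2s1 and Eif5a2. For the members whose values in every library are given, exon changes at 1 h, 4 h and 16 h were followed through these alternatives. There, 1562 alternative values kept direction and side of the threshold, 54 lost the call, 16 gained one and 0 reversed. Values called in neither fit counted as kept. These counts leave out the other members and all introns. Over all members, leaving out total 16 h replicate 3 lost 11 calls and gained 0 in total introns at 16 h. With no scaling beyond the authors' own, labelled exons at 4 h lost 8 calls and gained 1. Depth is unknown, so counting error could not be separated from other spread.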
